A study of Homo sapiens with 6 samples.

Results

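Fc receptors and the chains that carry their signals were followed in FUJIOKA, a human acute myeloid leukaemia cell line, with and without silencing of SPINK2. The 9 genes, chosen by name, were the receptors FCGR1A, FCGR2A, FCGR2B, FCGR3A, FCAR and FCGRT, the adaptors FCER1G and TYROBP, and the kinase SYK. These names matched 18 of the 63236 rows of the deposited table. Of these rows, 10 were listed at 0, namely FCGR3A and 9 further FCAR rows under other Ensembl identifiers. The other 8, with 1 row for each gene, carried an adjusted p-value, as did 17395 genes in all.

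RNA was sequenced from 3 shNEG libraries, whose cells carried a scrambled shRNA, and 3 shSPINK2 libraries, whose cells carried an shRNA against SPINK2. Both shRNAs were delivered by lentivirus into the same line and switched on with doxycycline, which both groups received. The labels describe a pair of SPINK2 shRNAs without tying either to a library, whereas the methods name 1, and the time of RNA collection after induction is not given in the sources used here. Nothing says that the libraries of a group came from separate transductions, so p-values measure the spread between these libraries, which may be technical.

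Fc receptors bind the constant part of antibodies and so join antibody recognition to the action of phagocytes. Activating receptors either hold an ITAM, a short tyrosine motif, in their own tail, as FCGR2A does, or borrow one from a partner chain such as FCER1G, as FCGR1A, FCGR3A and FCAR do. TYROBP, also called DAP12, serves many other myeloid receptors in the same way. Kinases of the SRC family phosphorylate the ITAM and SYK docks on it, whereas FCGR2B carries the inhibitory ITIM motif. FCGRT differs from the rest. It encodes the heavy chain of FcRn, which pairs with beta-2 microglobulin and returns internalised antibody from the endosome to the surface. FCGR1A is the CD64 antigen of monocytes and macrophages.

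Promoter sequence was compared first. Whether any shared sequence bears on the changes in reads was not tested. RefSeq promoter windows of GRCh38.p14, from 250 bases before to 50 bases after the start, were at hand for 8 of the 9 genes, all but FCAR. These starts can differ from the GENCODE gene bounds given below. The FCGR2B window, chr1:161646993-161647292, lay well before the GENCODE start of the gene. The FCGRT window, chr19:49512411-49512710, lay inside the gene. The longest run of identical bases between any pair of them was the 20 bases shared by FCGR1A and FCGR2A, which no other gene in the promoter table held. The next longest run between a pair was 11 bases. The 130 bases before each start are shown for both genes, with the shared run in capitals, and for TYROBP. In TYROBP the capitals mark its single match to GAGGAAGT, which appears as the reverse complement ACTTCCTC in the direction of the gene. The stretches lie at chr1:149782564-149782693 on the plus strand, chr1:161505327-161505456 on the plus strand and chr19:35908296-35908425 on the minus strand.
FCGR1A: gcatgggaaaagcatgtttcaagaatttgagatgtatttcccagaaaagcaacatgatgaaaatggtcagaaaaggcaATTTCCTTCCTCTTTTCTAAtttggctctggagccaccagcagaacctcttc
FCGR2A: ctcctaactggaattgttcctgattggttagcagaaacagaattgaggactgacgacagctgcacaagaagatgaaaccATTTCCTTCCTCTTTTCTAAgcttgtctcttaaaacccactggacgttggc
TYROBP: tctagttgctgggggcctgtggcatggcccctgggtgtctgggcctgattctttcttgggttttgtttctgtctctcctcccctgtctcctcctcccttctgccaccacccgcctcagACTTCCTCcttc

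The shared run began 52 bases before the FCGR1A start and 51 before the FCGR2A start, and it holds TTCCTC, the reverse complement of GAGGAA, a core word of ETS family factors such as PU.1. Words were searched on both strands of 35116 promoters, which leave out chromosome 8. GAGGAA lay in 27.9% of these promoters and in those of FCGR1A, FCGR2A, FCGR2B, FCGR3A, FCGRT, SYK, TYROBP and SPINK2, and was not in the FCER1G window. The longer GAGGAAGT, which contains it, lay in 2.59% of promoters, among them FCGR3A, SYK and TYROBP. TTCNNNGAA, the palindrome of STAT sites, lay in 7.66%, FCGR1A and FCGR2B included. A pair of GAAA words 2 bases apart lay in 3.57%, with FCGR2B and FCGR3A among them. The CAAT words TTNCNCAAT and TTNCGCAAT, in 2.62% and 0.177% of promoters, were in none of these genes. FCER1G held none of the 6 words.

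Reads in each library were worked out from the mean that the table gives for each gene to 15 digits, and were divided by the size factor of the library. In the text the libraries of a group stand in order of size factor, from the largest, which was 1.03 in shSPINK2, to the smallest, which was 0.985 and also in shSPINK2. This order need not be that of the sample numbers, to which the libraries could not be tied. A library held 38425214 normalized reads on average. SPINK2 itself, a serine protease inhibitor, had 55.8, 63.0 and 53.1 normalized reads in shNEG and 6.78, 8.92 and 6.09 in shSPINK2. It was thus low in all 3 silenced libraries, at 0.127 of the shNEG mean. Of 11 myeloid and progenitor markers, 10 reached a mean of 10, with AZU1 highest at 35566 and KIT lowest at 0.666. Single markers of other lineages were also seen. The highest were NKG7 with a mean of 5217 and GNLY with 146 from the NK cell list, TRAC with 299, CD79A with 183 and GP1BA with 119.8. CD3E had a mean of 0.500, and KLRD1, NCAM1 and NCR1 were listed at 0. NKG7 rose with SPINK2 silencing (log2 fold change 0.58, adjusted p = 7.72e-35, DESeq2) and TRAC fell (-1.004, adjusted p = 1.01e-17, DESeq2), and their part in the results was not tested.

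Of the 8 Fc receptor genes tested, 5 were higher in shSPINK2 (FCGRT, TYROBP, FCGR1A, FCGR2A and FCER1G) and 0 were lower, by an adjusted p-value under 0.05 in the DESeq2 Wald test of the deposited table. By the same rule 22.7% of all genes tested were higher and 24.4% were lower. None of the 8 had a log2 fold change over 1. Of all genes tested, 1.56% had both an adjusted p-value under 0.05 and a log2 fold change over 1 in the higher direction. The median log2 fold change was 0.42 over the 8 genes and 0.01 over all genes. In the same 5 genes each shSPINK2 library lay above each shNEG library. Reads per library were not worked out for all genes, so the share of all genes whose groups are apart in this way is not given. The groups were also apart in every gene outside the 8 whose reads were worked out, most of them picked for an extreme statistic. Among these were CLEC4E and RAB11FIP1, which did not pass the DESeq2 test. For SYK, FCGR2B and FCAR the groups overlapped. More cells bearing a transcript and more of it per cell cannot be told apart in bulk RNA.

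**Figure D1:**
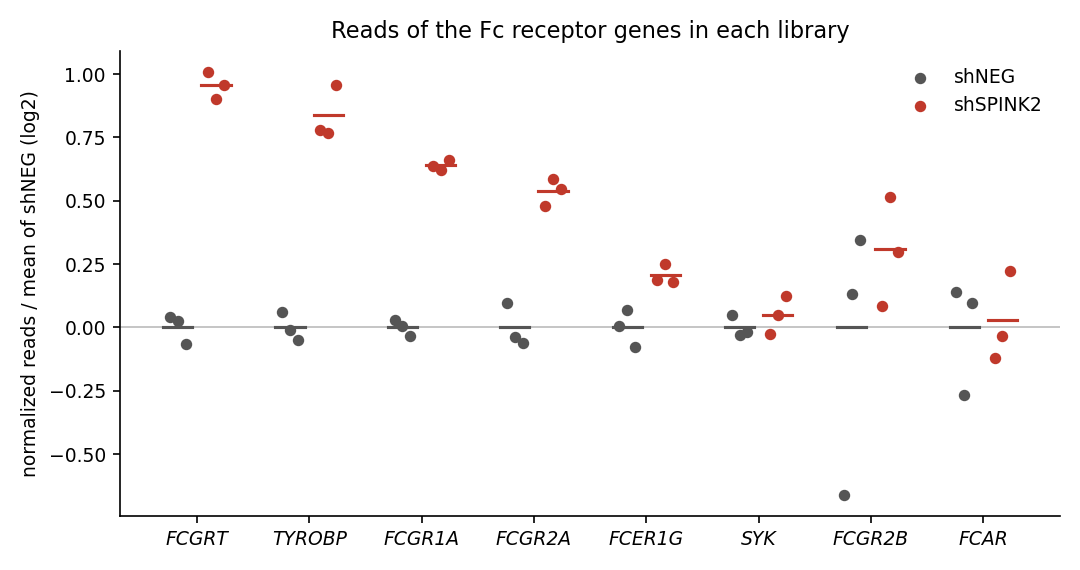
Normalized reads of each gene in each of the 3 shNEG (grey) and 3 shSPINK2 (red) libraries, divided by the shNEG mean of that gene and shown as log2. Points are libraries and bars are group means. The groups are apart for FCGRT, TYROBP, FCGR1A, FCGR2A and FCER1G and overlap for SYK, FCGR2B and FCAR.

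**Figure D2:**
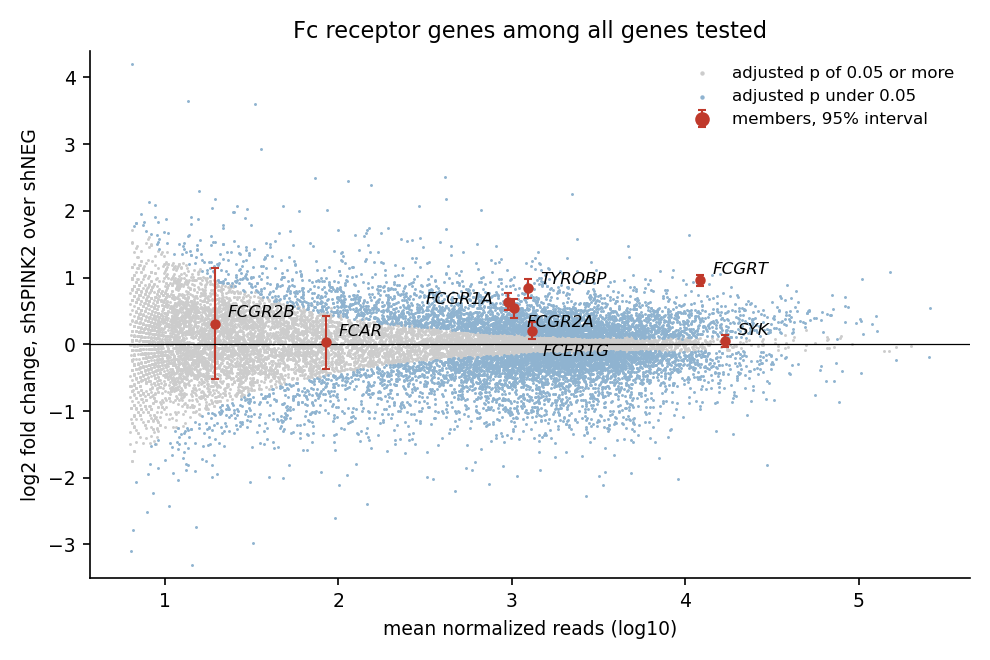
Log2 fold change of shSPINK2 over shNEG against the mean of normalized reads (log10) for the 17395 genes tested, from the deposited table. Blue points have an adjusted p-value under 0.05, grey points do not, and red points with 95% intervals are the 8 Fc receptor genes. FCGRT and SYK lie at similar means, 12160 and 17039, with log2 fold changes of 0.96 and 0.05.

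FCGR1A encodes the high affinity receptor for IgG. In shNEG it had 763, 749.5 and 729 normalized reads, against 1160.5, 1150.1 and 1180.2 in shSPINK2. The libraries of each group lay close together, with coefficients of variation of 2.29% and 1.31%, and the lowest silenced library was 1.51 times the highest control. The mean rose from 747 ± 17.1 to 1164 ± 15.3 (SD, n = 3), which is 1.56-fold. In the deposited table the log2 fold change was 0.64 ± 0.07 (SE) with an adjusted p-value of 1.42e-20 by DESeq2. The exact permutation test of 3 libraries against 3 gave p = 0.1, two-sided, the smallest value it can give. It gave the same for each of the other 4 Fc receptor genes whose groups were apart.

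FCGR1A lies on chromosome 1 at 149782671-149791675 (hg38, plus strand) and has near copies on the same chromosome. Of its 1184 windows of 150 bases, the read length, 19.3% occurred whole in transcripts of FCGR1BP or FCGR1CP, so part of its reads cannot be placed with certainty. The FCGR1CP row rose 1.54-fold, from 238 ± 3.56 to 368 ± 8.90 (SD, n = 3; adjusted p = 3.90e-08, DESeq2). The FCGR1BP row, named FCGR1B in the table, had 264 ± 9.21 and 311 ± 25.5 and did not pass the test (adjusted p = 0.0804, DESeq2). With the 3 rows summed, normalized reads were 1250.0 ± 22.3 in shNEG and 1843 ± 34.5 in shSPINK2, a ratio of 1.47. The FCGR1A row held 59.1% to 60.4% of that sum in shNEG and 62.0% to 64.3% in shSPINK2. A histone gene, H2BC18, overlaps FCGR1A on the other strand, and strand use in the counting is not given in the sources used here.

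FCGR2A and FCGR2B encode the activating and the inhibitory low affinity receptors, and lie in one cluster on chromosome 1. FCGR2A (161505430-161524013, plus strand) had 892, 814 and 799.9 normalized reads in shNEG and 1164, 1254 and 1219.8 in shSPINK2. The lowest silenced library was 1.30 times the highest control. The mean rose 1.45-fold, from 836 ± 49.8 to 1213 ± 45.3 (SD, n = 3), with a log2 fold change of 0.54 ± 0.07 (SE) and an adjusted p-value of 7.27e-14 by DESeq2 in the deposited table. None of its windows of read length occurred whole in FCGR2C.

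FCGR2B (161663143-161678654, plus strand) was scarce. It had 10.97, 18.99 and 22.03 normalized reads in shNEG and 18.4, 24.8 and 21.3 in shSPINK2, and the groups overlapped. The means of 17.3 ± 5.71 and 21.5 ± 3.19 (SD, n = 3) differed by less than the spread of the shNEG libraries. The deposited log2 fold change was 0.31 ± 0.42 (SE; adjusted p = 0.595, DESeq2), with a 95% interval from 0.699-fold to 2.20-fold, so that at this depth neither a rise like that of FCGR2A nor no change at all could be told from the data. Further, 24.3% of its windows of read length occur whole in FCGR2C, which had a mean of 8.13 reads over all libraries.

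The balance of activating to inhibitory receptor was compared within each library as the ratio of FCGR2A to FCGR2B reads. This ratio ran from 36.3 to 81.4 in shNEG and from 50.6 to 63.3 in shSPINK2. The silenced libraries thus fell inside the range of the controls. The log2 ratio differed by 0.18 between group means (exact permutation test, two-sided, p = 0.7). FCGR2B gave 11 to 25 reads in a library before scaling.

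FCGR3A, the CD16a receptor of natural killer cells and some monocytes, was listed at 0, as was its near copy FCGR3B. FCGR3A lies within the cluster, on the minus strand at 161541759-161550968. The kinase gene YES1, named here outside the rule and in use in many cell types, was also listed at 0. Whether a listed 0 means that a gene was not expressed was not tested.

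FCAR, the receptor for IgA (chromosome 19, 54874235-54891420, plus strand), had 92.7, 70.0 and 90.1 normalized reads in shNEG and 77.4, 82.2 and 98.4 in shSPINK2. The groups overlapped, with means of 84.3 ± 12.5 and 86.0 ± 11.01 (SD, n = 3). The deposited fold was 1.02 with a 95% interval from 0.772 to 1.35 (adjusted p = 0.929, DESeq2). A change of the size seen for FCGR1A lay outside this interval.

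FCGRT (chromosome 19, 49506816-49526428, plus strand) gave the largest difference of the 8 genes. It had 8499, 8409 and 7901 normalized reads in shNEG and 16637, 15460.1 and 16054 in shSPINK2. Each silenced library held at least 1.82 times the reads of any control. The mean rose from 8269 ± 322 to 16050.4 ± 588 (SD, n = 3), or 1.94-fold, and the deposited log2 fold change was 0.96 ± 0.04 (SE; adjusted p = 1.17e-105, DESeq2). By its Wald statistic FCGRT ranked 21 from the top among the 17395 genes tested. The 95% interval of its log2 fold change, 0.87 to 1.04, spans the threshold of 1 that it did not pass.

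The adaptors did not move by the same amount. FCER1G (chromosome 1, 161215234-161220699, plus strand), the common gamma chain of FCGR1A, FCGR3A and FCAR, had 1217, 1268 and 1146 normalized reads in shNEG and 1377, 1441 and 1370.0 in shSPINK2. The groups were apart by a narrow margin, the lowest silenced library being 1.08 times the highest control. The rise was 1.15-fold, from 1210.3 ± 61.2 to 1396 ± 39.3 (SD, n = 3), with a log2 fold change of 0.21 ± 0.06 (SE) and an adjusted p-value of 0.00275 by DESeq2. FCER1G lost its call with a Bonferroni correction and when tested against a log2 fold change of 0.25.

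TYROBP (chromosome 19, 35904401-35908295, minus strand) had 926, 882 and 859 normalized reads in shNEG and 1524, 1515 and 1728 in shSPINK2. All 3 silenced libraries were at least 1.64 times the highest control, and 1 of them stood above the other two. The mean rose 1.79-fold, from 889 ± 34.2 to 1589 ± 121 (SD, n = 3), with a log2 fold change of 0.84 ± 0.07 (SE; adjusted p = 2.17e-32, DESeq2). Its neighbour HCST, which encodes the related adaptor DAP10, ends 23 bases away on the other strand. HCST rose 1.78-fold, from 745 ± 35.7 to 1326 ± 14.6 (SD, n = 3; adjusted p = 2.60e-34, DESeq2). Whether reads running past an end were shared between these genes was not tested.

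Receptor and adaptor were set against each other within libraries, in comparisons added after the reads were seen. The ratio of FCGR1A to FCER1G reads ran from 0.591 to 0.636 in shNEG and from 0.798 to 0.861 in shSPINK2. That of FCGR2A to FCER1G ran from 0.642 to 0.734 and from 0.845 to 0.890. The ratio of TYROBP to FCER1G was below 1 in all controls, at 0.696 to 0.761, and above 1 in all silenced libraries, at 1.05 to 1.26. In these 3 ratios the groups did not overlap (exact permutation test, two-sided, p = 0.1 each, the smallest possible, and 0.167 adjusted over the 5 ratios compared). FCGR1A and FCGR2A kept closer to each other, with ratios of 0.855 to 0.920 in shNEG and 0.917 to 0.997 in shSPINK2 (exact p = 0.2).

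SYK (chromosome 9, 90801787-90898549, plus strand) had 17331, 16381 and 16523 normalized reads in shNEG and 16441, 17319.5 and 18241 in shSPINK2. The groups overlapped. The means were 16745 ± 512 and 17334 ± 900 (SD, n = 3), and the deposited log2 fold change of 0.05 ± 0.04 (SE) did not pass the test (adjusted p = 0.386, DESeq2). With a 95% interval from 0.975-fold to 1.099-fold, a change as large as that of FCGR1A, FCGR2A, TYROBP or FCGRT lay outside what these libraries allow.

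Levels of different genes were compared as normalized reads per kilobase of exon, counting every annotated exon base of a gene. In shNEG the order was SYK at 3214, FCGRT at 2041, FCER1G at 1256, TYROBP at 980.4, FCGR1A at 347, FCGR2A at 154, FCAR at 25.3 and FCGR2B at 2.60. In shSPINK2 FCGRT stood first at 3961 and SYK next at 3327, and TYROBP at 1752 stood above FCER1G at 1448. The remaining genes kept their places, with FCGR1A at 540.0, FCGR2A at 224, FCAR at 25.9 and FCGR2B at 3.23. The lowest and highest libraries of neighbours in either order did not overlap on this scale, which covers the spread between libraries and not the choice of length. The canonical transcripts of FCGR1A, FCGR2A and FCGR2B have 1333, 2646 and 2133 bases, against the 2155, 5422 and 6655 used here. The order with other lengths was not tested. Without regard to length, SYK made up 58.1% of the reads of the 8 genes in shNEG and 44.6% in shSPINK2, while FCGRT went from 28.7% to 41.3%.

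**Figure D3:**
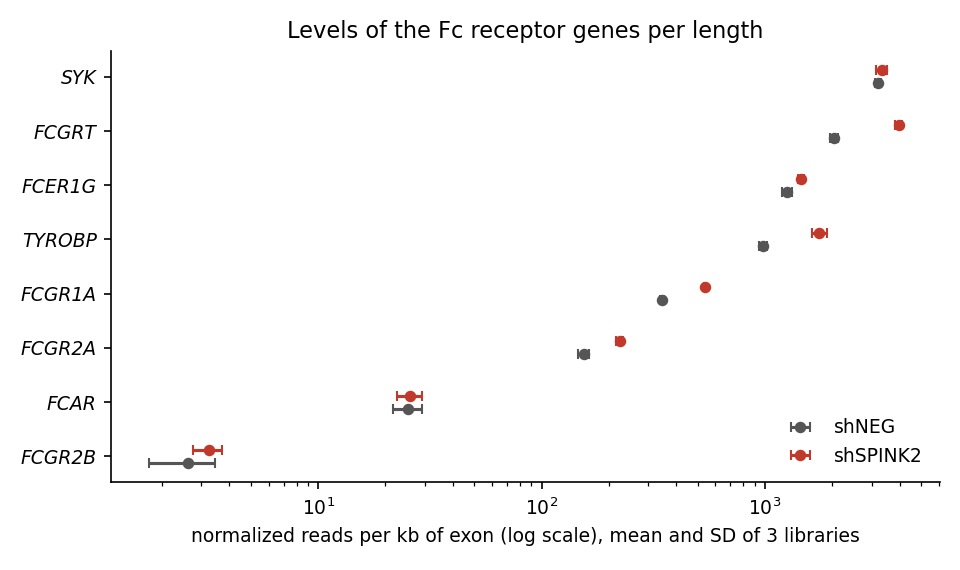
Normalized reads per kilobase of annotated exon (log scale) for the 8 genes, as mean and SD of 3 shNEG (grey) and 3 shSPINK2 (red) libraries. With these exon lengths FCGRT passes SYK and TYROBP passes FCER1G in the silenced libraries, and FCAR and FCGR2B lie lowest in both groups.

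The genes around these receptors were read from 8 lists of 141 genes in all, of which 108 were tested. Of these, 55 were higher and 20 were lower (DESeq2, deposited table), against 22.7% and 24.4% of all genes, and their median log2 fold change was 0.15. With a minimum mean of 50, 30.6% of all genes were called higher and 32.9% lower. The lists were chosen with earlier results of these data known, so the counts are not a test of the lists. Of 12 receptors that signal through FCER1G or TYROBP, 8 were higher, 0 were lower and 4 did not pass the test, with log2 fold changes from -0.69 to 0.63 and a median of 0.23. CLEC5A, a partner of TYROBP on monocytes, had the highest statistic of them at 0.48 ± 0.04 (SE), and CLEC4E had the lowest at -0.20 ± 0.11, which did not pass the test although its 3 silenced libraries lay below the controls. Among other ITAM or DAP10 chains 3 of 4 were higher, HCST and CLEC1B (1.24 ± 0.18) included, and 0 were lower. CLEC7A had -1.15 ± 0.68 and did not pass.

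Of 15 other inhibitory receptors with an ITIM, 11 were higher, 2 were lower and 2 did not pass the test, against 22.7% higher and 24.4% lower among all genes, and the median log2 fold change was 0.52. The lectin CLEC12A at 1.48 ± 0.05 (SE) had the highest statistic of any listed gene, with means of 2479 ± 95.3 and 6910.3 ± 340.0 normalized reads (SD, n = 3). LILRB2 rose by 1.15 ± 0.06, PECAM1 by 1.71 ± 0.20, and the scarcer LILRB3 and SIGLEC7 by 1.28 ± 0.41 and 1.34 ± 0.51. SIRPA, the receptor for CD47, went the other way at -0.80 ± 0.04, with 6326 ± 108 reads in shNEG and 3633 ± 85.2 in shSPINK2.

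Kinases that act beside SYK were mixed, with 4 of 9 higher and 3 lower, against 22.7% and 24.4% of all genes tested. FGR, a SRC family kinase of myeloid cells, rose by 1.01 ± 0.07 (SE), from 683 ± 50.4 to 1377 ± 55.8 normalized reads (SD, n = 3). SRC at -1.12 ± 0.29 and FYN at -0.28 ± 0.05 fell. Of the 32 proteins downstream of SYK, 12 were higher and 9 lower, with a median of 0.06. The B cell linker BLNK, at 55.6 reads on average, rose by 1.25 ± 0.26, and the small GTPase RAC2 had the highest statistic at 0.32 ± 0.04. BCL10, which joins CARD9 to MALT1, fell by 1.22 ± 0.08 on the log2 scale, from 991 ± 12.4 to 425 ± 7.00 normalized reads (SD, n = 3). Among phosphatases and inhibitory adaptors 9 of 17 were higher and 4 lower, with log2 fold changes from -0.96 to 0.33. PTPRJ had the lowest Wald statistic, at -0.71 ± 0.05, and PTPN6, the phosphatase SHP-1, the highest, at 0.30 ± 0.04.

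Among other Fc receptors 10 of 19 were tested, and 2 were higher and 2 lower. Of all genes tested, 22.7% were higher and 24.4% lower. TRIM21, which binds antibody inside the cell, rose by 0.49 ± 0.04 (SE), and FCRL1, a receptor known from B cells, fell, at -1.37 ± 0.23. In the list built around FcRn, 6 of 9 were higher and 0 lower. At a minimum mean of 50, which all of these genes reached, 30.6% of all genes were called higher and 32.9% lower. Beta-2 microglobulin, B2M, named here outside the rule because it is the light chain of FcRn, rose by 0.53 ± 0.05 at a mean of 70980.1 reads. LAMP2, of the lysosomal membrane, rose by 0.72 ± 0.05, and RAB11FIP1, of the recycling endosome, had -0.14 ± 0.07 and did not pass the test.

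**Figure D4:**
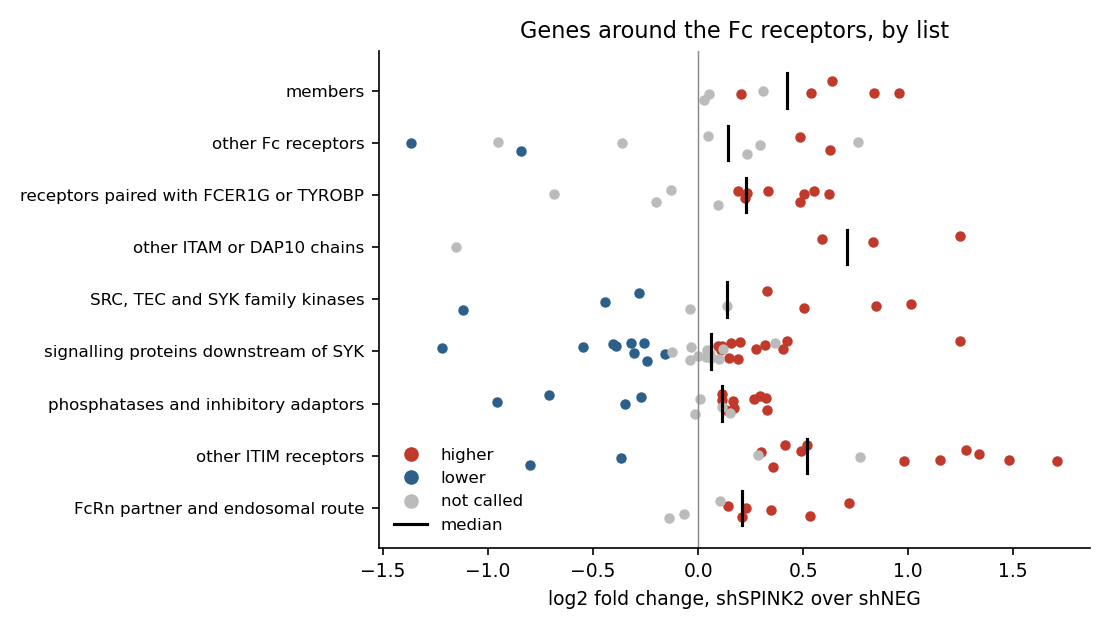
Log2 fold change of shSPINK2 over shNEG for the 8 Fc receptor genes (top row, members) and for each tested gene of the 8 lists around them. Red genes were called higher, blue genes lower and grey genes neither at an adjusted p-value under 0.05, and black bars are medians, which run from 0.06 for proteins downstream of SYK to 0.71 for other ITAM or DAP10 chains.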

How the data were processed

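Libraries were made with an mRNA kit and sequenced as paired reads of 150 bases. Per the labels and the study's methods, the authors aligned reads to GRCh38 with STAR 2.7.11, assigned them to genes with featureCounts and fitted both groups with DESeq2 1.40.0. The deposited table holds, for each gene, the mean normalized signal over all 6 libraries, a log2 fold change with its standard error, a Wald score, and the p-value and Benjamini-Hochberg adjusted p-value. All but the mean are the authors' own comparison and were taken as deposited. It holds no counts per library.

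Whole reads per library were computed here (Python 3.11.15, numba 0.67.0). Size factors came from means shared by genes with 1 read in 1 library. All 650 distinct means below 1 were then whole combinations of 6 weights. The group of a library came from the sign of the fold change of those genes. For each gene, whole reads were sought that gave the mean to 15 digits and, in a negative binomial fit of 2 groups, the log2 fold change and standard error with 1 dispersion. Exactly 1 set within the region searched came within 1e-12 of the deposited log2 fold change for each gene whose reads are given. CLEC5A, RAC2, PTPN6, LAMP2 and B2M were not searched. On simulated data 60 of 60 genes were recovered. Recovery at means as high as those of SYK and FCGRT, or as low as that of CLEC7A, was not tested. Nor was recovery at dispersions as high as those of FCGR2B, FCAR, SPINK2 and the scarcer listed genes. Among the latter were CLEC7A, SIGLEC7, LILRB3, SRC and BLNK. For SYK and FCGRT the next best sets were 8.18e-12 and 1.71e-09 away. Log2 ratios of means used a pseudocount of 0.5. Fold values in the text use none.

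Called genes had an adjusted p-value under 0.05. Named genes were the 9 genes, SPINK2 and, per list, those called with an absolute log2 fold change over 1 and those with the highest and lowest Wald score. Genes and lists were chosen with earlier results of these data known. Positions and exon lengths are from GENCODE 44. Intervals are 95% Wald intervals.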

Additional observations from a re-analysis of the deposited data

How the results depend on the processing

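The count of 5 higher and 0 lower Fc receptor genes was the same at an adjusted p-value under 0.01, with Benjamini-Hochberg adjustment over every gene with a p-value, with a minimum mean of 10 or 50, and with fold changes centred on the median. It was 4, without FCER1G, with Bonferroni correction or against a log2 fold change of 0.25. The share of all genes higher was 22.7% in the main test, 18.9% at 0.01, 11.4% over every gene with a p-value and also with Bonferroni, 24.7% and 30.6% at a minimum mean of 10 and 50, 7.76% against 0.25 and 23.2% after centring. Leaving out each library in turn, a Wald test added after seeing the data, at the dispersion recovered from the table, gave 5 to 5 genes, and the unadjusted p of FCER1G reached 0.0160, under the 0.0235 of the least called gene. With a threshold of 1.5-fold in place of a log2 fold change of 1, 3 genes passed (FCGRT, TYROBP and FCGR1A) in place of 0, against 5.73% of all genes in the higher direction. Shrunken fold changes gave 0. Leaving out a library moved the difference in the log2 ratio of FCGR2A to FCGR2B between -0.06, without the third shNEG library, and 0.53, without the first. Summing the 3 FCGR1 rows, also added after seeing the data, moved the log2 ratio of FCGR1A from 0.64 to 0.56. List totals of 55 and 20 of 108 tested genes became 54 and 19 of 97 with a minimum mean of 50, where 30.6% and 32.9% of all genes were called, and 56 and 20 of 108 after centring. No paired analysis was possible because the recovered libraries carry no replicate number. Depth limits FCGR2B and FCAR most, as their intervals show.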

Other observations

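Within 100 kb of the stretch from FCGR2A to FCGR2B on chromosome 1, genes named after their values were seen did not all follow FCGR2A. HSPA6, a heat shock gene between FCGR2A and FCGR3A, had a log2 fold change of -0.82 ± 0.19 (SE) at a mean of 109 reads (adjusted p = 6.35e-05, DESeq2), and DUSP12 had -0.43 ± 0.06 at a mean of 1449 (adjusted p = 1.71e-11, DESeq2). FCRLB, an Fc receptor-like gene at a mean of 149.7, had 0.29 ± 0.15 and did not pass the test (adjusted p = 0.106, DESeq2).

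The IgE receptor joins FCER1G to MS4A2, its beta chain, which fell by 0.84 ± 0.21 (SE) on the log2 scale at a mean of 89.5 reads (adjusted p = 0.000197, DESeq2). It also stands in the mast cell marker list, in which CPA3 had -0.95 at a mean of 49.8 and TPSAB1 was listed at 0. HDC had -0.65 and CMA1 had 0.34, at means of 3.81 and 4.15 and with no adjusted p-value. The summed mean of the 5 markers was 189 normalized reads in shNEG and 106 in shSPINK2, with MS4A2 and CPA3 the largest parts.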
